A study of Mus musculus with 6 samples.

Results

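Neuropeptide precursors are secretory proteins that neurons cut into short signalling peptides, and 10 of their genes were examined in embryonic mouse rhombomere 1: Cartpt, Tac1, Pnoc, Penk, Npy, Sst, Cck, Nts, Gal and Adcyap1. All 13 probes that the platform annotation assigns to these symbols were taken, out of 45276 probes on the array and 19054 named genes. The set was chosen by precursor family around Cartpt, itself selected on its mutant-control difference in an earlier fit of the same arrays, so the mutant-control differences of these 10 genes are given as a description and not as a test.

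The 2 genotypes were compared at E12.5 in the ICR (CD-1) strain. The mutants carried En1-cre and Gata2 flox/flox, and the controls, titled wildtype, carried En1-cre and Gata2 flox/+ according to the design text, so both groups held the recombinase and at least a single floxed allele. En1-cre acts in the midbrain and rhombomere 1 and was used to delete Gata2, a GATA-family transcription factor that acts as precursors become neurons. Each group had 3 pools of 6 dissected pieces, and each pool was read on 1 array of the Illumina Mouse WG-6 BeadChip type, which reports RNA as the brightness of probe-carrying beads. Levels are normalized intensities on the log2 scale, differences are mutant minus control, and n is 3 pools per group. In such bulk tissue fewer cells of a type and less RNA per cell cannot be told apart.

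A neuropeptide precursor enters dense-core vesicles, is cleaved there by prohormone convertases and trimmed by carboxypeptidase E, and the released peptides act mostly on G protein-coupled receptors. Neuropeptides are usually released beside a fast transmitter and mark subclasses of neurons: in the brainstem they are found in GABAergic, glutamatergic and monoaminergic cells. Several precursor genes are regulated by cyclic AMP through a palindromic promoter element, the cyclic AMP response element (CRE), which was characterised in the somatostatin gene.

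The promoters of Cartpt, Sst and Tac1 are shown because Cartpt was the member that was higher in the mutants, Sst shares its complete CRE, and Tac1 was the measured member with every mutant value below every control value. The table of RefSeq promoters (GRCm38.p6) held 8 of the 10 genes. Each sequence is the 250 bases before the annotated transcript start, 5′ to 3′ on the gene's strand. Capitals mark the complete CRE TGACGTCA, its shorter part TGACG and the GATA motifs AGATAA, or AGATAG, or TGATAA, or TGATAG, each searched on both strands; a complete CRE contains the shorter part on both strands.
Cartpt promoter, chr13:99900684-99900933, minus strand: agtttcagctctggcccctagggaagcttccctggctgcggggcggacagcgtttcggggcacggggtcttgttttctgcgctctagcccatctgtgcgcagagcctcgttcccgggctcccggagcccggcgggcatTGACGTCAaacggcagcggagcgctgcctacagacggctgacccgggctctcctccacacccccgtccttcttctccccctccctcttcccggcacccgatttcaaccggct
Sst promoter, chr16:23890845-23891094, minus strand: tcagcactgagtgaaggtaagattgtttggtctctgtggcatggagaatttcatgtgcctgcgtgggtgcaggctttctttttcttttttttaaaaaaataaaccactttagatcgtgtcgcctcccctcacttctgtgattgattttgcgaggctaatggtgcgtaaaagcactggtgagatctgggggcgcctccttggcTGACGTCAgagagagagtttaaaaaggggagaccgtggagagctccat
Tac1 promoter, chr6:7554811-7555060, plus strand: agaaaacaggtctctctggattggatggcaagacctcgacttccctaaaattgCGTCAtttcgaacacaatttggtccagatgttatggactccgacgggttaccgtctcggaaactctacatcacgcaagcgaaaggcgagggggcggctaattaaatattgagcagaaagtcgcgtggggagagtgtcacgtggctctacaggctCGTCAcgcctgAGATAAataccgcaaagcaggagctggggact

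The complete CRE began 112 bases before the start of Cartpt and 48 bases before the start of Sst. It was found for these 2 of the 8 genes and in 1.55% of all 32851 promoter windows of this length. The shorter part TGACG was found for 6 of 8 genes, and in 17.8% of all windows. Tac1 held it beginning 197 and 43 bases before its start. A GATA motif was found for 4 of 8 genes, Tac1, Cck, Nts and Adcyap1, and in 26.5% of all windows; in Tac1 it began 32 bases before the start. These matches describe the letters in the windows only.

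On each array between 19388 and 20407 probes, 42.8% to 45.1%, were above background (detection p-value under 0.05), and a probe was called measured if this held on at least 3 of 6 arrays. The number of arrays limits the precision. The only Gata2 probe averaged 10.89 ± 0.17 in mutants and 10.53 ± 0.16 in controls (SD, n = 3 each), and the sources used here do not give its place relative to the deleted part, so it does not check the labels. Of 7 genes of rhombomere 1 and the isthmus with a probe, En1, En2, Gbx2, Fgf8 and Pax8 were above background on all 6 arrays, and Pax2 and Pax5 on none. Otx2, a marker of the midbrain, was also above background on all 6 arrays, at 8.34 ± 0.35 in mutants and 8.33 ± 0.44 in controls. Of 8 genes of the hindbrain farther back only Hoxa2 and Hoxb2 were measured, on 3 and 4 of 6 arrays.

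Cartpt, the precursor of the CART peptides, which act in appetite, stress and arousal circuits, was the member with higher signal in the mutants. Its first probe read 7.43, 7.70 and 7.85 in mutant pools and 6.58, 6.96 and 6.56 in control pools. The mutant and control values did not overlap, and the lowest mutant array, 1R, lay above the highest control array, 6R. The means were 7.66 ± 0.22 in mutants and 6.70 ± 0.22 in controls (SD, n = 3 each), a difference of 0.96 ± 0.15 (standard error) and a 1.95-fold higher signal. The 95% interval of the difference was 0.63 to 1.29. The size depended on the processing: it was 0.72, or 1.64-fold, without background correction and 0.74, or 1.68-fold, in the authors' normalized table. Before normalization and background correction the deposited intensities were 227, 273 and 277 in mutants and 149, 175 and 133 in controls, and they were above background on all 6 arrays.

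A second Cartpt probe, assigned to the same RefSeq transcript, was also above background on all 6 arrays. It read 6.59, 6.91 and 7.19 in mutant pools and 5.92, 6.71 and 6.18 in control pools. Here the groups overlapped, since control array 6R lay above mutant array 1R, the same arrays that lay nearest each other with the first probe. The difference was 0.63 ± 0.20, with a 95% interval of 0.19 to 1.07, and it was 0.41 without background correction. Both probes put mutant array 3R highest and control arrays 5R and 7R lowest, so they gave the same direction and differed in size. With p-values adjusted over all measured probes, the first probe was called (limma adjusted p = 0.0278) and the second was not (limma adjusted p = 0.407).

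Of the 6 measured members, 1, Cartpt, was among the genes called in the fit over all genes (limma, Benjamini-Hochberg adjusted p under 0.05), where 0.171% of 10524 genes were called in either direction and 0.038% were called higher. That call is what singled Cartpt out. It was not made in 6 of 16 alternative settings: without mutant array 2R or 3R, without control array 5R or 7R, with the mean of its 2 probes, and without an intensity trend in the variance. The direction was the same in all 16, with differences of 0.72 to 1.09. Leaving out an array could not reverse it, since the first probe's mutant and control values did not overlap. With no or a stricter detection filter, no intensity trend, or every probe kept apart, the first probe's values were unaltered. The difference was therefore fixed at 0.96 in those settings. With every probe kept apart, the call counted is that of the first probe.

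**Figure D1:**
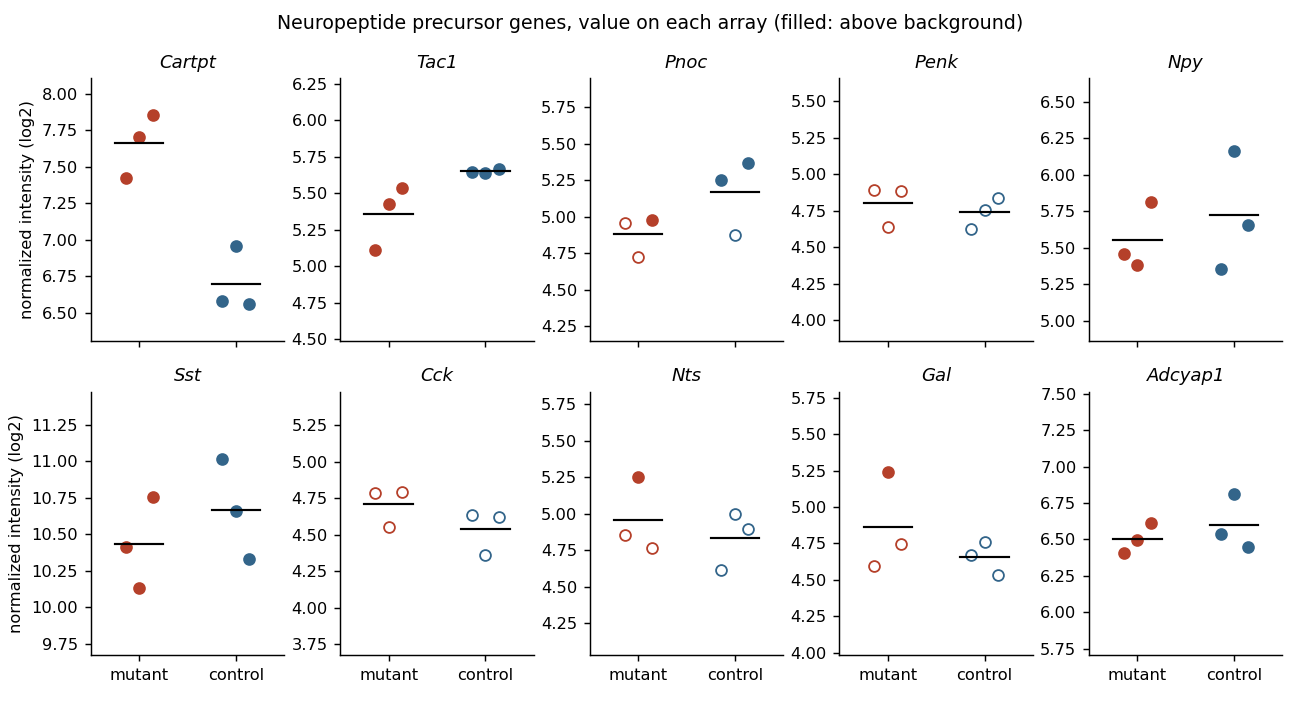
Normalized intensity (log2) of each precursor gene's brightest probe on the 3 mutant arrays (red) and the 3 control arrays (blue); lines are means, filled points are above background and open points are not, and each panel spans the same height. Cartpt's mutant values of 7.43 to 7.85 lie above its control values of 6.56 to 6.96, and Penk and Cck have no filled point.

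Of the tachykinin and opioid-family precursors, Tac1 and Pnoc were measured and neither was called. Tac1, which yields substance P and neurokinin A, read 5.11, 5.43 and 5.53 in mutant pools and 5.65, 5.64 and 5.67 in control pools. All mutant values lay below all control values, which lay close together (SD 0.01), but the difference of -0.29 ± 0.15 had a 95% interval of -0.62 to 0.04 and the gene was not called. In the deposited intensities before normalization the Tac1 groups did overlap, with 86.4, 94.5 and 91.2 in mutants and 102, 99.9 and 94.0 in controls. The Tac1 difference was -0.14 without background correction and -0.13 in the authors' normalized table. A second Tac1 probe was above background on no array and differed by -0.03.

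Pnoc, the precursor of nociceptin, read 4.96, 4.72 and 4.97 in mutant pools and 5.26, 4.88 and 5.37 in control pools. It was above background on 1 of 3 mutant arrays and 2 of 3 control arrays, just enough to count as measured, and its groups overlapped. The difference was -0.28 ± 0.17, with a 95% interval of -0.65 to 0.08, and it was -0.13 without background correction and -0.12 in the authors' normalized table. Penk, the enkephalin precursor, was not above background on any array, at 4.80 ± 0.14 in mutants and 4.74 ± 0.11 in controls (SD, n = 3 each), so no fold is given.

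Sst and Npy, precursors of somatostatin and neuropeptide Y, 2 peptides common in inhibitory neurons, were above background on all 6 arrays. Sst read 10.41, 10.13 and 10.76 in mutant pools and 11.01, 10.66 and 10.33 in control pools. The groups overlapped widely, and the difference was -0.23 ± 0.17 with a 95% interval of -0.61 to 0.14. Npy read 5.46, 5.38 and 5.81 in mutant pools and 5.36, 6.17 and 5.66 in control pools, with the lowest and the highest value both among controls. Its difference was -0.18 ± 0.20, with a 95% interval of -0.61 to 0.26. Neither gene was called.

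Adcyap1, the precursor of PACAP, a peptide that raises cyclic AMP through its receptor, read 6.41, 6.50 and 6.61 in mutant pools and 6.54, 6.81 and 6.45 in control pools. The groups overlapped, and the difference was -0.09 ± 0.14 with a 95% interval of -0.40 to 0.21. Intervals of this width do not show that these genes were unaltered.

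The precursors of cholecystokinin (Cck), neurotensin (Nts) and galanin (Gal) were not measured. Cck was above background on no array, with 4.71 ± 0.14 in mutants and 4.54 ± 0.15 in controls. The first Nts probe and the Gal probe were each above background on 1 of 3 mutant arrays, in both cases array 2R, and on 0 of 3 control arrays, with values there of 5.25 and 5.24. A second Nts probe was above background on no array. The 6 probes below the filter, for Penk, Cck, Nts, Gal and the second Tac1 probe, gave differences of -0.03 to 0.20, and the lowest signal above background was 4.9 to 5.0 on the 6 arrays. No fold is given for these genes.

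Set side by side, Cartpt differed by 0.96 and the other 5 measured members by -0.29 to -0.09. The median over the 6 measured members was -0.20, against 0.01 over all 10524 genes, and 46.7% of all genes were negative. None of the other 5 was called in the fit over all genes or in any of the alternatives run. All 5 stayed negative under median scaling, under no background correction and in the authors' normalized table, but without control array 6R Npy was 0.04 and Adcyap1 0.01. Groups that did not overlap were seen for 2 of the 6, Cartpt and Tac1, and for 14.1% of all genes tested.

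**Figure D2:**
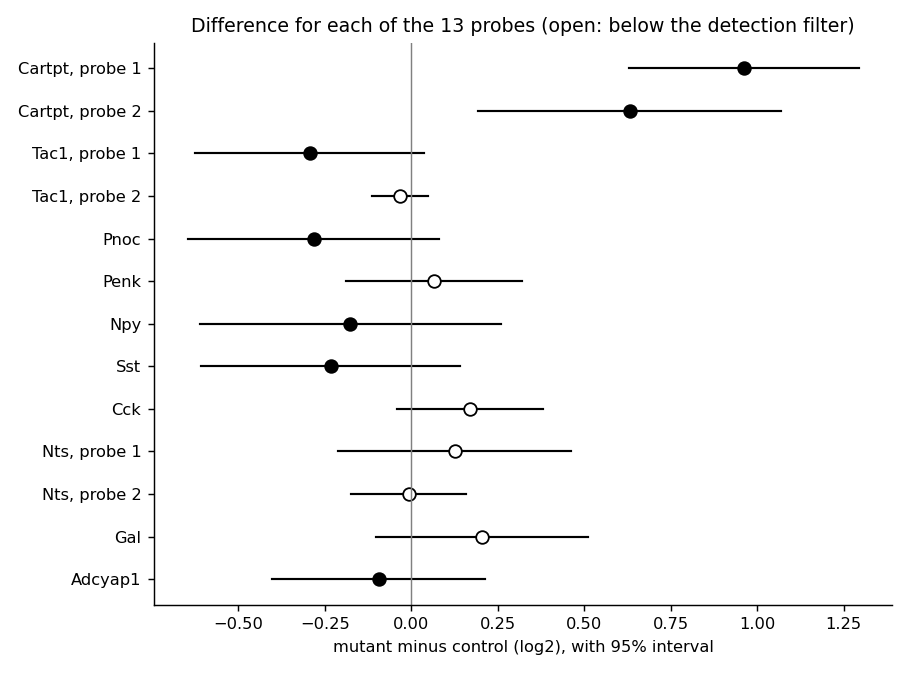
Difference in log2 intensity, mutant minus control, for each of the 13 probes, with 95% intervals from limma; filled points passed the detection filter and open points did not. Both Cartpt probes, at 0.96 and 0.63, have intervals above 0, and the intervals of the other 11 probes include 0.

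The receptors of these peptides were read from a list of 30 symbols, of which 27 had a probe. Only 6 were measured. With limma 0 of them were called and 0 had an unadjusted p under 0.05, against 0.171% and 8.83% of all genes. The list median was -0.11, against 0.01 for all genes. Tacr1, the substance P receptor, averaged 5.94 ± 0.22 in mutants and 6.19 ± 0.06 in controls (SD, n = 3 each), a difference of -0.24 ± 0.15 (adjusted p = 0.682, limma). A second Tacr1 probe differed by 0.04. Oprl1, the nociceptin receptor, differed by -0.13 ± 0.12 (limma adjusted p = 0.817), and its other probes by -0.25 and -0.14.

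Sstr2, a somatostatin receptor, averaged 10.68 ± 0.10 in mutants and 10.71 ± 0.10 in controls, a difference of -0.03 ± 0.10. Sort1, or sortilin, which binds neurotensin and also sorts proteins inside cells, averaged 12.09 ± 0.11 in mutants and 12.07 ± 0.07 in controls, a difference of 0.02 ± 0.09, while its other probes differed by -0.04, -0.01 and 0.21. The PACAP receptor Adcyap1r1 differed by -0.12 ± 0.19 and the cholecystokinin receptor Cckbr by -0.09 ± 0.15. The other 21 receptor genes with a probe were below the filter, among them all those named for neuropeptide Y and galanin, and Gpr160, which has been proposed as a CART receptor. Ligand and receptor were both measured for the tachykinin, nociceptin, somatostatin and PACAP systems.

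Among genes that process and store the peptides, 23 of 28 with a probe were measured. Of these, 2 were called lower and 0 higher, where 0.133% of all genes were called lower. These were the granins Scg2 and Chgb, proteins of dense-core vesicles. Scg2 read 7.94, 8.13 and 8.21 in mutant pools and 9.65, 9.47 and 9.66 in control pools, a fall of 2.84-fold (limma adjusted p = 1.37e-05). Chgb read 8.17, 8.62 and 8.70 in mutant pools and 9.85, 9.66 and 9.65 in control pools, a fall of 2.34-fold (limma adjusted p = 0.000902). Both had been seen in earlier results of these arrays. The granin Chga differed by 0.02 ± 0.16 and Scg3 by -0.26 ± 0.12 (limma adjusted p = 0.561).

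None of the measured processing enzymes and their partners was called. The convertase genes Pcsk1 and Pcsk2 were not among the 23 measured genes. Cpe, carboxypeptidase E, averaged 12.29 ± 0.19 in mutants and 12.36 ± 0.05 in controls, a difference of -0.08 ± 0.11 (limma adjusted p = 0.880). Scg5, the chaperone of the convertase that Pcsk2 encodes, differed by -0.07 ± 0.18, and Pcsk1n, an inhibitor of the convertase that Pcsk1 encodes, by 0.06 ± 0.17. The convertase gene Furin differed by 0.18 ± 0.14, and Pam, which amidates peptide ends, by -0.17 ± 0.19 close to background. The median over the 23 genes was -0.01, against 0.01 over all genes.

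Of 46 other precursor genes with a probe, 11 were measured. With limma 0 were called and 0 had an unadjusted p under 0.05, against 0.171% and 8.83% of all genes. Of the 11, 4 were positive and 7 negative, with a median of -0.07. Over all genes 46.7% were negative and the median was 0.01. The largest absolute differences were those of Cort, Vip and Nmb. Cort, the precursor of cortistatin, a relative of somatostatin, averaged 5.52 ± 0.37 in mutants and 5.79 ± 0.16 in controls, a difference of -0.27 ± 0.19 (limma adjusted p = 0.724), and a second probe differed by -0.29. Vip averaged 6.43 ± 0.24 in mutants and 6.69 ± 0.17 in controls, a difference of -0.26 ± 0.16 (limma adjusted p = 0.678). Nmb, the neuromedin B precursor, differed by -0.22 ± 0.15 and Pdyn, the dynorphin precursor, by -0.21 ± 0.19. Mutant and control values overlapped in each of these 4 genes.

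Of 16 peptidase genes with a probe, 9 were measured and the median was 0.05. With limma 0 were called and 2 had an unadjusted p under 0.05, as did 8.83% of all genes. Kel, an endothelin-processing peptidase carried by red blood cells, averaged 6.01 ± 0.10 in mutants and 5.46 ± 0.08 in controls, a difference of 0.56 ± 0.14 (limma adjusted p = 0.256). Thop1, which degrades neurotensin among other peptides, averaged 7.87 ± 0.06 in mutants and 7.57 ± 0.08 in controls, a difference of 0.30 ± 0.11 (limma adjusted p = 0.493). In both genes the mutant and control arrays did not overlap, as in 14.1% of all genes. Ece2, an endothelin-converting enzyme, differed by 0.20 ± 0.15 with its brightest probe and by -0.00 and -0.01 with 2 others.

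**Figure D3:**
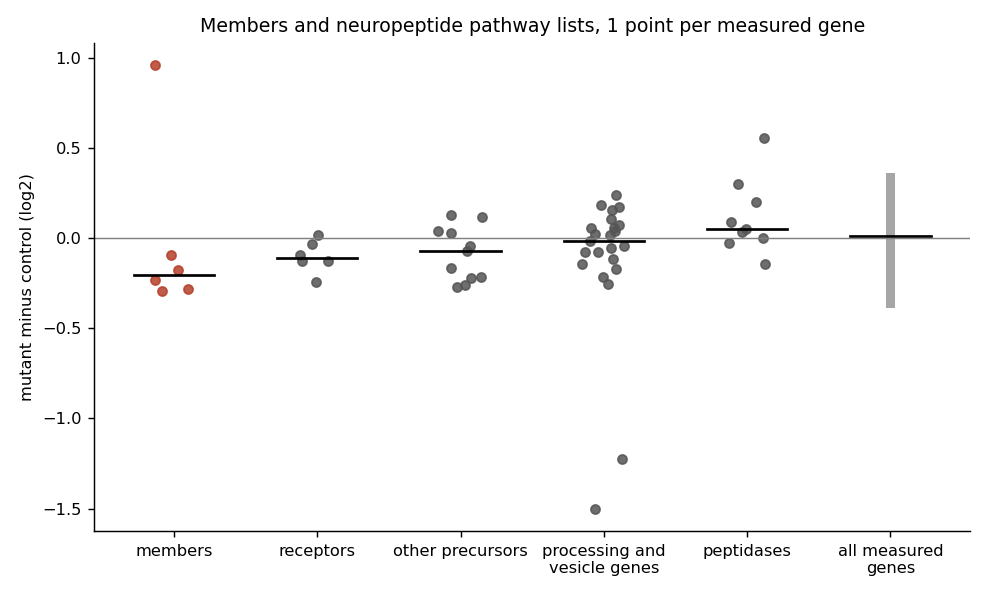
Mutant minus control difference (log2) for each measured gene of the member set (red) and of 4 pathway lists (grey), with list medians as lines; the bar at the right spans the central 95% of all measured genes. Cartpt, which was selected on this difference, lies at 0.96 with its first probe, and Scg2 and Chgb lie below the other vesicle genes.

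The genes whose values followed Cartpt most closely over the 6 arrays were found by the root mean square difference between profiles, each gene taken minus its own mean. They were Prdm13 (0.15 on the log2 scale), Pkd2l1 (0.15), Trim71 (0.17), Depp1 (0.20) and Man1b1 (0.23), against a median of 0.52 over all genes. All 5 were higher in every mutant pool than in any control pool, which a likeness to Cartpt over these arrays largely fixes. Pkd2l1 was called (limma adjusted p = 0.0109). Trim71, Man1b1, Depp1 and Prdm13 were not called (limma adjusted p = 0.106, 0.151, 0.221 and 0.238). Prdm13, a transcription factor of inhibitory neuron specification in the dorsal spinal cord and cerebellum, read 5.05, 5.33 and 5.58 in mutant pools and 4.53, 4.76 and 4.57 in control pools. It was above background on 3 of 3 mutant arrays and 0 of 3 control arrays, so it passed the filter only through the mutant arrays. Its mean signal was at least 1.26-fold higher, measured against the lowest signal above background on each control array. That bound is taken between means and carries no error. The distances of Prdm13 and Trim71, and so their places in the order, rest partly on control values that were not above background.

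Pkd2l1, a channel of neurons that contact the cerebrospinal fluid, read 8.36, 8.43 and 8.55 in mutant pools and 7.61, 7.76 and 7.66 in control pools. Trim71, an RNA-binding ubiquitin ligase of embryonic cells, averaged 5.77 ± 0.30 in mutants and 4.96 ± 0.07 in controls, with 1 of 3 control arrays above background, and a second probe below background differed by -0.12. Depp1 differed by 0.65 ± 0.15 and Man1b1, a mannosidase of the endoplasmic reticulum, by 0.54 ± 0.12. The other measured members were farther from Cartpt, with distances of 0.53 for Adcyap1, 0.59 for Npy, 0.64 for Tac1, 0.66 for Sst and 0.70 for Pnoc. The distance of Adcyap1 was close to the median of 0.52 over all genes. The distance between Cartpt's own probes, which differed in size, was not calculated.

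**Figure D4:**
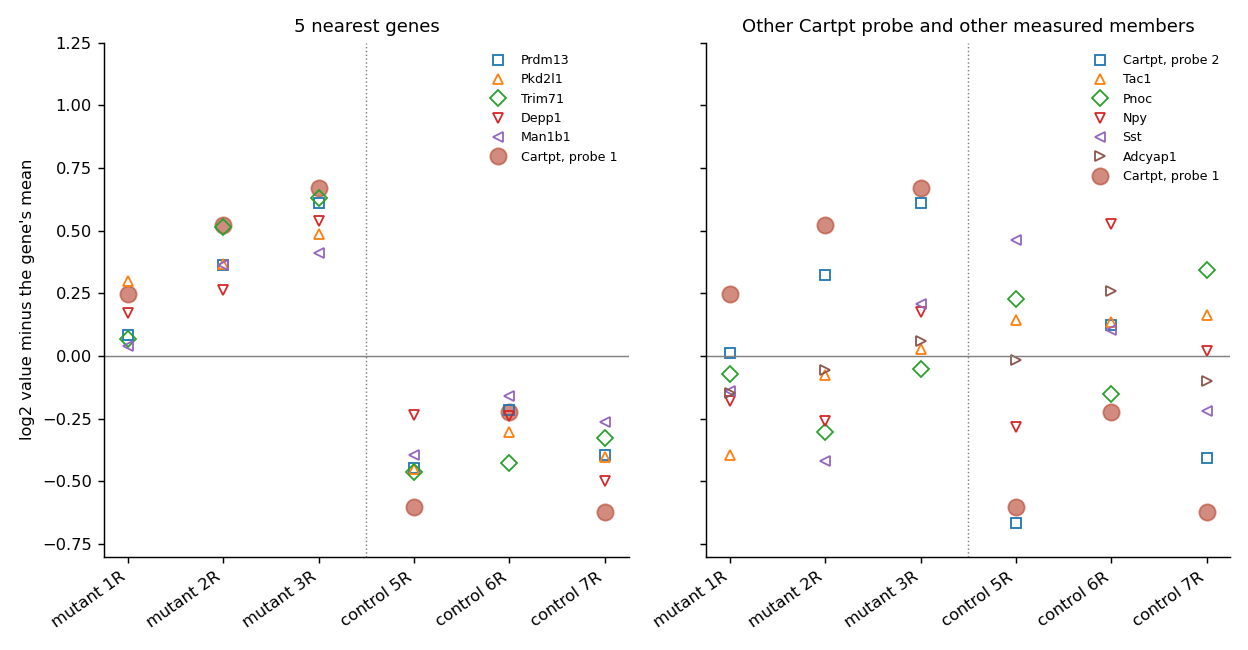
Log2 value minus the gene's mean on each of the 3 mutant and 3 control arrays, with Cartpt's first probe (large circles) beside the 5 nearest genes (left) and beside its second probe and the other measured members (right). The nearest genes, picked as the closest of all genes, lie 0.15 to 0.23 from Cartpt. The other members lie 0.53 to 0.70 away, against a median of 0.52 over all genes.

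Markers of other cell types were read beside these results. Over all genes 0.133% were called lower and 8.83% had an unadjusted p under 0.05. Of 6 measured genes of serotonergic neurons, 4 were called lower: Tph2, Slc6a4, Slc17a8 and Gchfr. Gchfr was above background on 0 of 3 mutant arrays and 3 of 3 control arrays, so it passed the filter only through the control arrays. Slc6a4 was above background on 1 of 3 mutant arrays. Gata3 differed by -0.85 and Lmx1b by 0.13, and neither was called. The list's summed normalized intensity was 504 to 900 in mutant pools and 3172 to 4143 in control pools. The 5 measured genes of GABAergic neurons were all negative, with 0 called by limma and 1 with an unadjusted p under 0.05, and their sum was 6012 to 8845 in mutant pools and 7558 to 9614 in control pools. The 4 measured blood genes were all positive, with 0 called by limma and 2 with an unadjusted p under 0.05, and their sum was 30775 to 38584 in mutant pools and 28469 to 32682 in control pools. The part of these cells in the differences of Cartpt, Scg2, Chgb and Kel was not tested.

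None of 6 hypothalamic and pituitary genes with a probe, Pomc and Nkx2-1 among them, was above background on any array. The sum over the 4 measured genes of cranial sensory ganglia was 498 to 534 in mutant pools and 375 to 676 in control pools. The 3 measured noradrenergic genes had a median of -0.01, and the 3 of cranial motor neurons a median of 0.07. The motor neuron sum, 1102 to 1119 in mutant pools and 881 to 1073 in control pools, is mostly Isl1, which averaged 10.02 ± 0.01 in mutants and 9.82 ± 0.15 in controls, while Chat differed by 0.03 and Slc5a7 by 0.07.

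**Figure D5:**
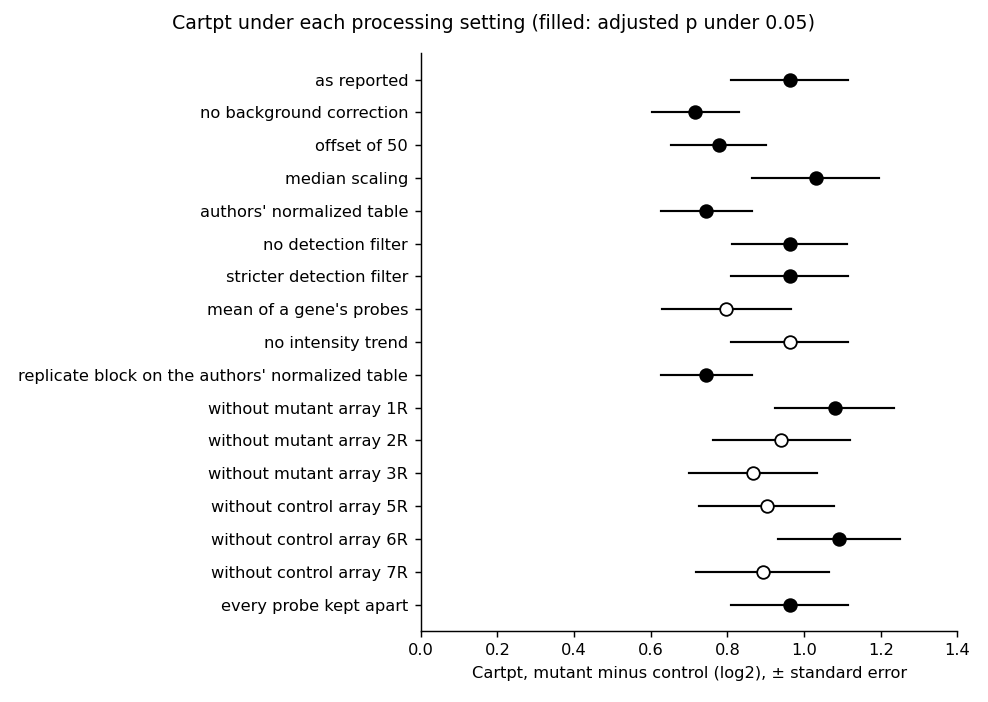
Cartpt difference (log2, mutant minus control) with its standard error under the reported and the alternative settings; filled points had an adjusted p under 0.05. All values lie between 0.72 and 1.09, and 6 of the 16 alternatives are open.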

How the data were processed

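RNA of 6 pools was measured on Illumina Mouse WG-6 arrays. Per the file headers, one deposited table held linear intensity that had not been normalized, each with a detection p-value, and another held the authors' normalized intensity; the submitters' processing notes name GenomeStudio 1.0. The first table labels its columns by genotype and array (mutants 1R to 3R, controls 5R to 7R), which tie them to a group but to no titled sample.

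The neqc function of limma 3.58.1 (R 4.3.3) corrected background and quantile-normalized, with an offset of 16 and log2 output; correcting background widens the differences of dim genes. All 19936 measured probes were fitted with lmFit and eBayes with an intensity trend; each gene was read from its brightest probe, and p-values were adjusted over 10524 genes (Benjamini-Hochberg, threshold 0.05). Probes below the filter were fitted without it. The fit was tested on simulated data. For a group with no array above background, folds are bounds against each array's dimmest detected signal, or the probe's own value if higher.

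Of 45276 probes, 34881 had 1 gene symbol in the platform annotation, 18 had several and 10377 had none. The members and lists were chosen with earlier results of these data known. Named are all members, called list genes or else the 3 with the largest absolute difference, measured receptors and the 5 genes nearest to Cartpt; Chga, Scg3, Pdyn and the processing enzymes were named after their values were seen. P-values set a difference against the spread between pools, with each probe's variance drawn toward the trend over all probes. Alternatives were other background, scaling, filter, probe and variance choices, the authors' table, and leaving out each array.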

Additional observations from a re-analysis of the deposited data

How the results depend on the processing

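Over all genes 18 were called, but 52 when mutant array 1R was dropped; the number lay between 12 and 52 when each array was left out in turn; with every probe kept apart 29 probes were called, and the cause was not tested. In the other 9 alternatives it was 13 to 21. Cartpt differed by 0.80 with the mean of its probes and by 0.96 without an intensity trend, and with either the count of called members was 0 in place of 1; leaving out each array in turn gave 0.87 to 1.09 and a count of 0 to 1. The cause of the lost calls was not tested. The call was kept without mutant array 1R or control array 6R (limma adjusted p = 0.00743 and 0.0188). Without an intensity trend the limma adjusted p was 0.0502. Leaving out arrays in turn, Npy ranged from -0.36 to 0.043 and Adcyap1 from -0.17 to 0.012, both positive only without control array 6R. In the same way Sst ranged from -0.40 (without control array 7R) to -0.060 (without 5R), and was -0.39 without mutant array 3R and -0.082 without 2R. Tac1 ranged from -0.38 to -0.17 (without mutant array 1R), and Pnoc from -0.43 (without control array 6R) to -0.18 (without 7R). Npy was -0.095 without background correction and -0.091 in the authors' table, Sst was -0.15 under median scaling, and Adcyap1 was -0.038 under median scaling. The counts for receptors, other precursors and peptidases stayed at 0, and that for processing and vesicle genes at 2, in all alternatives run. Titles share replicate numbers, but same-numbered samples did not deviate together in the authors' normalized table (correlations of -0.04, -0.09 and -0.30). The numbers were therefore not taken as a pairing. With them as a replicate block on the authors' normalized values, 14 genes were called and Cartpt differed by 0.74. Without the block, the same values also gave a Cartpt difference of 0.74, and 18 genes were called. Median scaling moved the median of all genes to 0.08. Signal over background limits Tac1, Pnoc, Penk, Cck, Nts and Gal.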
